A study of Drosophila melanogaster with 9 samples.

Results

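Small nucleolar RNA (snoRNA) genes were examined in RNA from fly ovaries. All genes to which the authors' deposited table gives the biotype snoRNA were taken, which gave 286 of the 17199 genes listed. They were split by name alone: 109 whose name begins with snoRNA:Psi, the fly naming for box H/ACA guides, and 177 others. By their names many of the others are box C/D guides. Of these, 94 begin with snoRNA:Me and name a ribosomal RNA, and 3 begin with snoRNA:MeU and name a spliceosomal RNA. The others also hold 12 Or-CD genes, 17 with U or snR names, 5 named Or-aca and 15 small Cajal body RNA (scaRNA) genes. Some scaRNA genes carry Psi in their name. A further 31 have other names, such as Tudor-SN-a, most of which give no class. Among the 75 others with an adjusted p, 22 were snoRNA:Me genes for ribosomal RNA, 1 was snoRNA:MeU, 7 Or-CD and 10 U or snR. The rest were 21 with other names, 10 scaRNA and 4 Or-aca genes, so the others are not box C/D guides alone. No sequence was used to assign a class.

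Box C/D snoRNAs guide 2'-O-methylation of ribosomal RNA by the methyltransferase fibrillarin, and box H/ACA snoRNAs guide the conversion of uridine to pseudouridine by the enzyme called dyskerin in mammals and Nop60B in flies. A guide's fly name gives the modification, the RNA and the modified position, and a final letter marks copies with the same target. Most fly snoRNAs lie in introns of host genes and are cut out of the spliced intron, whereas U3, which acts in cleavage of the ribosomal RNA precursor, has its own genes, and scaRNAs guide modification of spliceosomal RNAs.

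The study, in Drosophila melanogaster, asked how ovary gene expression differs when Pcif1 or its nuclear localization signal (NLS) is altered. Mammalian PCIF1 methylates adenosines next to the mRNA cap. Both mutant alleles came from CRISPR-Cas9 deletion of the region coding for the NLS in w1118 flies. M6stop carries a frameshift that ends in an early stop codon, and F9ΔNLS carries an in-frame deletion that removes the NLS. BG02557, the control line, is itself not wild type: it carries the P-element P{GT1} in the first intron of Pcif1, and both alleles were backcrossed to it. RNA was extracted from 3 pairs of ovaries per line, and 3 libraries, named as biological replicates, were made for each of the 3 lines from total RNA depleted of ribosomal RNA. The age of the females is not given in the labels.

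The table gives, for each gene, the mean normalized count over all 9 libraries, and the log2 fold change and DESeq2 adjusted p-value of each mutant line over BG02557. The library columns could not be tied to the labelled samples, so no value per library, no spread and no depth is given, and whether the libraries of the lines overlap is not known. Both comparisons use the same BG02557 libraries and are therefore not independent of each other. As a check of the M6stop label, the log2 value of Pcif1 in the authors' deposited table was −2.51 for M6stop (listed DESeq2 adjusted p = 0). It was 0.02 in F9ΔNLS (adjusted p = 0.83), which does not check the F9ΔNLS label. That label rests on the column header alone. A DESeq2 adjusted p under 0.05 called 5.52% of the 10662 tested genes in M6stop and 23.4% in F9ΔNLS. Of 6 germline markers all were tested, with 0 called by DESeq2 in M6stop (at least 0 at an unadjusted p under 0.05, a lower bound explained with the snoRNA counts) and 2 higher and 1 lower in F9ΔNLS. Of 7 markers of the ovarian muscle sheath, 4 were called higher in M6stop and 7 in F9ΔNLS. Of 8 follicle cell markers, 5 were higher in M6stop, and 2 were higher and 2 lower in F9ΔNLS. Fat body markers were called higher for 2 of 4 in M6stop and 1 of 4 in F9ΔNLS, and hemocyte markers for 1 of 3 in M6stop and 2 of 3 in F9ΔNLS. No marker of these lists was listed at a mean of 0. The part of tissue makeup in the snoRNA values was not tested, and in whole ovaries fewer cells of a type and less RNA per cell cannot be told apart.

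The snoRNA genes were unequally measured. Of the 286 genes, 40 were listed with a mean of 0, 246 had a fold change and 176 had an adjusted p. Box H/ACA genes were tested far more often: 101 of 109, against 75 of 177 others. The tested and untested genes were separated by level, with a lowest mean of 2.85 normalized counts among tested snoRNA genes and a highest of 2.81 among untested ones.

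Gene length moved with this. In the Ensembl annotation of assembly BDGP6.54, which holds 256 of the 286 genes, box H/ACA genes had a median length of 140 bases (interquartile range 136 to 144, n = 106) and the others 85 bases (75 to 136, n = 150). Of the 86 genes shorter than 90 bases, 29 were tested (33.7%), and none of those 86 was a box H/ACA gene. Between 120 and 160 bases 96 of 102 box H/ACA genes were tested, against 18 of 28 others, and all 18 genes of 160 bases or more were tested. Across genes the Spearman correlation of length with the mean was 0.71 (n = 256, a description, since the counts come from the same libraries and longer genes give more fragments). Per length the median mean normalized count per 100 bases was 54.5 for box H/ACA genes and 3.45 for the others. Between 120 and 160 bases the median means were nearer, at 75.6 normalized counts for box H/ACA genes and 16.2 for the others. How well the libraries recovered short RNAs is not given, and dividing by length does not correct for it. The part of length in the class difference was not tested. Within the tested genes the medians were 61.2 and 12.1 normalized counts per 100 bases.

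**Figure D1:**
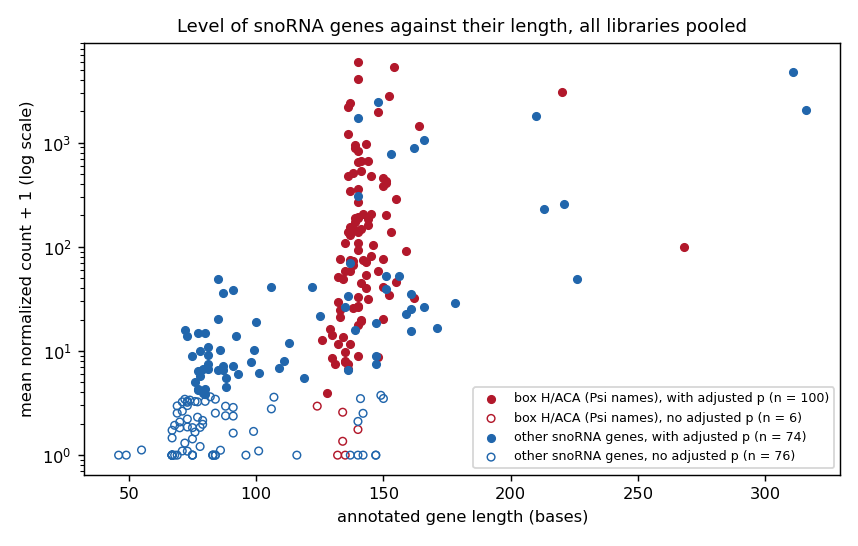
Length of the 256 annotated snoRNA genes in bases (x axis) against their mean normalized count over the 9 libraries plus 1 (y axis, log scale), coloured by class, with open circles for genes without an adjusted p. Box H/ACA genes cluster around 140 bases, while most genes under 90 bases lie at low means.

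The signal was unevenly spread over the genes. The means of the 286 genes summed to 63448 normalized counts, which is 0.350% of the sum over genes not named as ribosomal RNA. Of the snoRNA sum, 5 genes held 36.5% and 10 genes 55.3%, and box H/ACA genes together held 72.4%. Compared per length, the highest level was that of Psi18S-1820, a guide for 18S ribosomal RNA that lies in an intron of Nop60B, the pseudouridine synthase gene itself, at 4210 normalized counts per 100 bases. Psi18S-176 followed with 3479, and Psi18S-1854c, in the ribosomal protein gene RpS5a, with 2885 normalized counts per 100 bases. Psi18S-531, in both the ribosomal protein gene RpL22 and the noncoding gene lncRNA:CR42491, had 1852 normalized counts per 100 bases. Psi18S-1377e, in RpS7, had 1737 normalized counts per 100 bases. These 5 are all box H/ACA guides named for 18S ribosomal RNA.

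Among the other genes, the highest per length was Or-aca5, an H/ACA-type RNA by name in an intron of Uhg4, at 1672 normalized counts per 100 bases. Tudor-SN-a, in the gene of the nuclease Tudor-SN, had 1542, Or-CD2, also in Uhg4, 1218, U3:54Aa, a gene for U3, 860, and scaRNA:MeU5-C46, a guide for U5 spliceosomal RNA, 656 normalized counts per 100 bases. Genes named for 2'-O-methylation of ribosomal RNA had low counts: 22 of 94 were tested and 24 were listed at 0, with a median mean of 1.12 normalized counts. The 86 snoRNA genes shorter than 90 bases, whatever their name, had a median mean of 1.80 normalized counts. The part of length and of recovery in the libraries was not tested, so these counts do not show scarce guides.

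In M6stop over BG02557, 1 of the 176 tested snoRNA genes was called lower and 0 higher (DESeq2 adjusted p under 0.05), against 2.04% lower and 3.48% higher among all tested genes. Because the table holds no unadjusted p-values, these were bounded from the adjusted ones: at an unadjusted p under 0.05, at least 0 snoRNA genes were higher and 2 lower, against 944 higher and 654 lower of all 10662 genes. The gene called lower was Psi28S-3186, a box H/ACA guide for 28S ribosomal RNA, whose log2 fold change in the authors' deposited table was −1.89 (adjusted p = 6.5e-05). The other 175 genes lay between −0.18 and 0.12, and their smallest adjusted p was 0.26, for Psi28S-3436a.

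The median log2 fold change in M6stop was 0.0039 over tested snoRNA genes and −0.0007 over all tested genes. The medians of the classes were 0.0065 for box H/ACA genes and 0.0025 for the others. By the authors' deposited table, Psi18S-176 (0.12), Psi28S-3342 (0.11) and Psi28S-2442b (0.09) had the highest M6stop values among box H/ACA genes, and the lowest after Psi28S-3186 belonged to Psi28S-3436a (−0.18) and Psi28S-1837a (−0.09). Among the others the values ran from −0.04, for U3:9B and for snoRNA:229, which lies in the fibrillarin gene Fib, to 0.06, for snoRNA:2R:9445205. The extremes also included Or-CD1 at −0.03, Or-aca4 at 0.05 and Or-CD2 at 0.05 on the log2 scale of that table, none of which was called.

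In F9ΔNLS over BG02557, 4 of 176 tested snoRNA genes were called higher and 2 lower, together 3.41%. The share over all tested genes was 23.4%, with 11.6% higher and 11.9% lower. At the bounded unadjusted p under 0.05, at least 9 snoRNA genes were higher and 4 lower (7.39%), against 34.6% of all tested genes. All 6 called genes were box H/ACA genes by name. Of the 75 tested other genes 0 were called by DESeq2, with at least 2 higher and at least 0 lower at an unadjusted p under 0.05. The difference in calls between the classes was not tested.

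The lower share of calls among snoRNA genes was seen in each band of level, in counts that are small. Among genes with means of 10 to 100 normalized counts, 2 of 72 snoRNA genes were called in F9ΔNLS (2.78%), against 12.1% of all genes there. At 100 to 1000 the shares were 4.55% of 44 snoRNA genes and 26.4% of all genes, and at 1000 or more 12.5% of 16 snoRNA genes and 31.9% of all genes. Below 10 normalized counts, 0 of 44 snoRNA genes were called by DESeq2 (at least 0 at an unadjusted p under 0.05), against 2.94% of all genes. In M6stop the single call fell in the band of 10 to 100 normalized counts, where 1.39% of snoRNA genes and 6.98% of all genes were called. Without a split by level, other noncoding biotypes differed. In F9ΔNLS, 10.3% of 448 tested ncRNA genes and 26.1% of 23 spliceosomal snRNA genes were called, against 24.5% of protein-coding genes. In M6stop the shares were 3.1%, 4.3% and 5.75%.

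**Figure D2:**
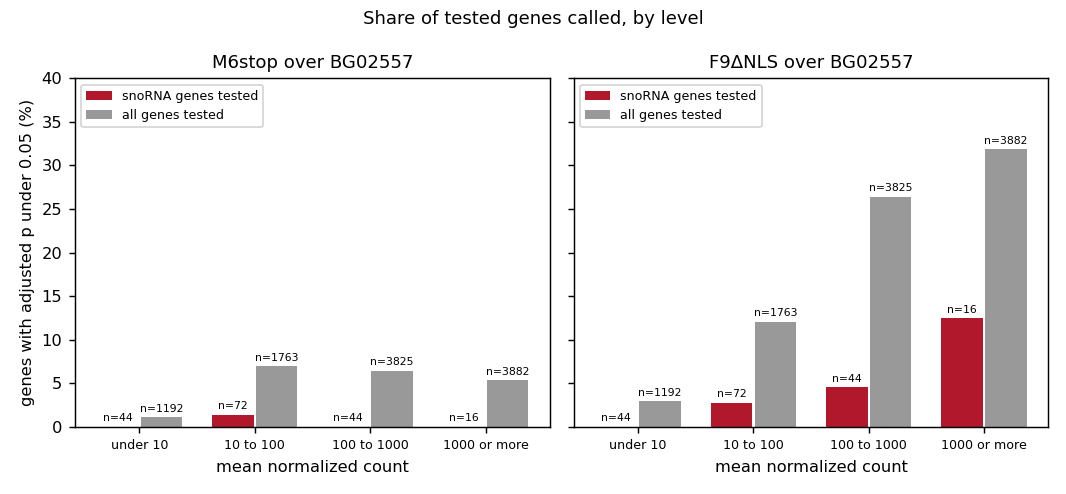
Percent of genes with a DESeq2 adjusted p under 0.05 (y axis) in 4 bands of mean normalized count (x axis), for tested snoRNA genes and for all tested genes, in each mutant line over BG02557. In each band and both lines the bar of the snoRNA genes is the lower one, reaching 12.5% in F9ΔNLS at means of 1000 or more.

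The listed absolute log2 fold changes, over both classes together, were also smaller for snoRNA genes than for all genes at means of 10 or more. Whether the authors pulled uncertain fold changes toward 0 (shrinkage) is not stated, so smaller listed values need not mean smaller changes. The median absolute log2 fold change in F9ΔNLS was 0.06 for snoRNA genes and 0.07 for all genes at means of 10 to 100, 0.09 for snoRNA genes and 0.15 for all genes at 100 to 1000, and 0.11 for snoRNA genes and 0.13 for all genes at 1000 or more. Box H/ACA genes alone had the larger value at 1000 or more, 0.18 over 10 genes. Below 10 normalized counts the order of snoRNA genes and all genes was also the other way, at 0.040 for snoRNA genes and 0.032 for all genes. Values near 0 were common where counts were low, and with no standard error in the table such a value does not show an equal level.

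The tested snoRNA genes, called ones included, lay more often above 0 than below it in F9ΔNLS. The median log2 fold change was 0.039 over tested snoRNA genes (interquartile range −0.005 to 0.078) and 0.004 over all tested genes. Of the 176 genes, 131 lay above 0 and 45 below, which is 74.4% above 0, against 51.4% of all tested genes. Box H/ACA genes had a median of 0.045, with 71 above 0 and 30 below, and the others 0.037, with 60 above and 15 below. The others were not alike in this. The 21 with other names, such as Tudor-SN-a, had a median of −0.010, with 10 above 0 and 11 below. The 22 snoRNA:Me genes for ribosomal RNA had 0.045, with 21 above 0 and 1 below. Noncoding genes of the biotype ncRNA had a similar median, 0.041 over 448 tested genes, and 23 tested spliceosomal snRNA genes had −0.07, with 6 called lower. The share above 0 was 93.2% of snoRNA genes and 65.9% of all genes at means under 10 normalized counts, and 70.8% of snoRNA genes and 62.7% of all genes at 10 to 100. It was 59.1% of snoRNA genes and 39.5% of all genes at 100 to 1000, and 81.2% of snoRNA genes and 53.4% of all genes at 1000 or more. These shares were not tested.

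**Figure D3:**
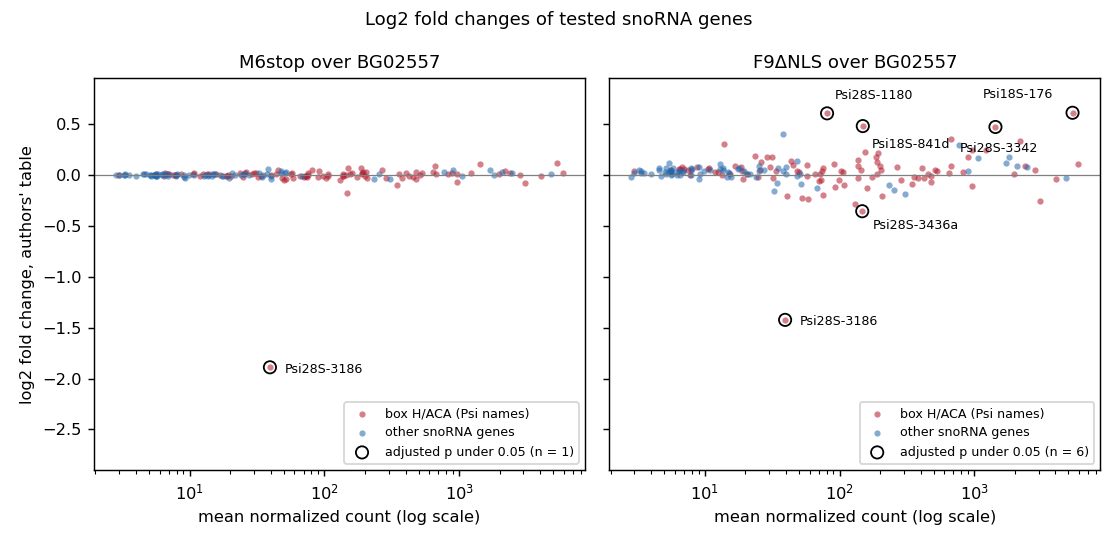
Log2 fold change of the 176 tested snoRNA genes (y axis) against mean normalized count (x axis, log scale), in M6stop over BG02557 (left) and F9ΔNLS over BG02557 (right), coloured by class, with rings for a DESeq2 adjusted p under 0.05. Psi28S-3186 is the single ringed gene in M6stop, and 6 box H/ACA genes are ringed in F9ΔNLS.

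Psi18S-176 (FBgn0086659) had the smallest adjusted p of the called genes in F9ΔNLS. It guides pseudouridylation of 18S ribosomal RNA by its name, and had a mean of 5358 normalized counts. In the authors' deposited table its log2 fold change was 0.61 in F9ΔNLS (DESeq2 adjusted p = 4.9e-05) and 0.12 in M6stop (adjusted p = 0.41). The gene spans chromosome arm 2R, 23839911 to 23840064, on the minus strand of BDGP6.54, and lies in no annotated gene on that strand. Its nearest gene is GlyT, a glycine transporter gene on the other strand, 47 bases away.

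Psi28S-3342 (FBgn0086667) also rose in F9ΔNLS and also has no annotated host. It lies on chromosome X at 5524302 to 5524465, minus strand. At a mean of 1435 normalized counts its log2 fold change in the authors' deposited table was 0.47 in F9ΔNLS (DESeq2 adjusted p = 0.0020) and 0.11 in M6stop (adjusted p = 0.45).

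The other genes that rose in F9ΔNLS were intronic. Psi18S-841d (FBgn0083016; 2R, 21330906 to 21331043, plus strand) lies in dom, which codes for the chromatin remodeler Domino, and had a log2 fold change of 0.48 in the authors' deposited table (DESeq2 adjusted p = 0.025), at a mean of 149 normalized counts. Psi28S-1180 (FBgn0086658; 2R, 11591341 to 11591485, minus strand) lies in tou, the gene of the chromatin protein Toutatis, and had 0.61 (adjusted p = 0.044) at a mean of 80.8. In M6stop the deposited values were 0.07 for Psi18S-841d and 0.05 for Psi28S-1180, neither called. Their hosts differed in F9ΔNLS: dom was called higher, with 0.36 (adjusted p = 6.5e-04), while tou had 0.0013 (adjusted p = 0.99) in the authors' deposited table.

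Psi28S-3436a (FBgn0086668) fell in F9ΔNLS, with a log2 fold change of −0.36 in the authors' deposited table (DESeq2 adjusted p = 0.029) at a mean of 147 normalized counts. It had −0.18 in M6stop (adjusted p = 0.26). The gene lies on X at 6742686 to 6742826, minus strand, in RpL17, a ribosomal protein gene whose own value in F9ΔNLS was −0.02 (adjusted p = 0.80).

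Psi28S-3186 (FBgn0086662) was lower in both comparisons, which share the BG02557 libraries. The authors' deposited table gives a log2 fold change of −1.89 in M6stop and −1.42 in F9ΔNLS (DESeq2 adjusted p = 7.0e-04), at a mean of 39.4 normalized counts over all lines. It spans 3R, 5598015 to 5598157, on the minus strand, inside an intron of kra, which codes for the translation regulator Krasavietz. The values of the neighbours in this host were read after those of Psi28S-3186 were known.

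The host kra holds 8 box H/ACA guides for 28S ribosomal RNA, and only Psi28S-3186 was called in M6stop or F9ΔNLS. The other 7 had M6stop values from −0.03 to 0.09 and F9ΔNLS values from −0.23 to 0.35 in the authors' deposited table, with smallest adjusted p-values of 0.49 and 0.068. The flanking genes were Psi28S-2442b, with a mean of 667 normalized counts and log2 fold changes of 0.09 in M6stop and 0.35 in F9ΔNLS, and Psi28S-3571, with a mean of 185 and log2 fold changes of 0.07 in M6stop and 0.18 in F9ΔNLS. Further along the gene Psi28S-3091a had −0.23 and Psi28S-3091b −0.20 in F9ΔNLS, neither called. The host transcript kra had −0.0058 in M6stop (adjusted p = 0.97) and 0.13 in F9ΔNLS (adjusted p = 0.053) in the authors' deposited table. No other snoRNA gene shares the name of Psi28S-3186, and no annotated gene overlaps it on the opposite strand.

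**Figure D4:**
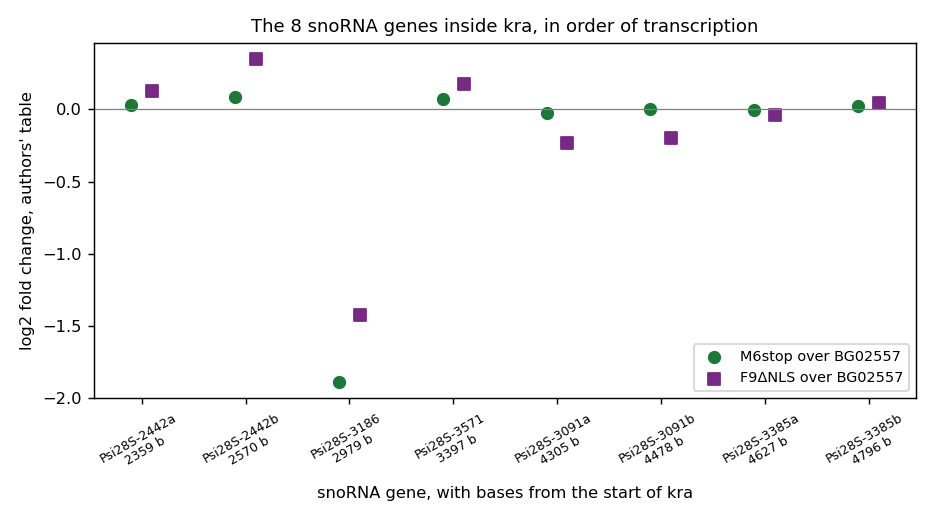
Log2 fold change (y axis) of the 8 snoRNA genes in kra, evenly spaced in their order from the start of the host gene (x axis, with the distance in bases), in M6stop and F9ΔNLS over BG02557. Psi28S-3186, 2979 bases from the start, lies at −1.89 and −1.42, while the other 7 lie between −0.23 and 0.35.

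The genes nearest the threshold in F9ΔNLS ran both ways. Just outside it, in the authors' deposited table, were Psi28S-291 in the ribosomal protein gene RpL3 (log2 fold change −0.26, adjusted p = 0.056), Psi28S-2442b (0.35, adjusted p = 0.068), Psi28S-612 (0.31, adjusted p = 0.076) and Psi28S-1175c in RpS16 (0.33, adjusted p = 0.087). The nearest of the other class was Me28S-G2703a, a 2'-O-methylation guide in Uhg5, with 0.40 and an adjusted p of 0.090. Its lettered copies Me28S-G2703b and Me28S-G2703c in the same host had 0.05 and 0.04.

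Beyond these, the extremes of the other class in F9ΔNLS were uncalled. SC35-a, in the gene of the splicing factor SC35, had a log2 fold change of 0.30 (adjusted p = 0.13) and U3:54Aa 0.18 (adjusted p = 0.27) in the authors' deposited table. At the low end were snoRNA:229 in Fib at −0.19 (adjusted p = 0.30), lola-d at −0.15 (adjusted p = 0.37) and CG32479-b at −0.14 (adjusted p = 0.43). The 10 tested scaRNA genes ran from −0.13 to 0.09, with 0 called in either comparison by DESeq2 and at least 0 at the bounded unadjusted p under 0.05. The 22 tested genes named for ribosomal 2'-O-methylation had a median of 0.045, and 21 of them lay above 0. Besides U3:54Aa, the genes with the highest means of the class had values nearer 0: Tudor-SN-a had −0.03, Or-aca5 0.08, Or-CD2 0.12 and scaRNA:MeU5-C46 0.09 on the same scale. Among the strongest box H/ACA genes, Psi18S-1820 had 0.11 (adjusted p = 0.52), Psi18S-1854c −0.04 and Psi18S-531 0.05. At the low end of that class, Psi28S-1837b, in CG10576, had −0.28 (adjusted p = 0.13), and its copy Psi28S-1837a −0.09.

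Lettered copies with the same named target did not share one value. The Psi18S-841 copies all lie in dom and, besides Psi18S-841d at 0.48, had F9ΔNLS log2 fold changes of −0.12 (Psi18S-841a, mean 160), −0.02 (Psi18S-841b, mean 24.9) and 0.0082 (Psi18S-841c, mean 20.4) in the authors' deposited table, none called. Psi28S-3436b, the copy of Psi28S-3436a in RpL17, had −0.23 (adjusted p = 0.22). Groups were formed from names that differ only by a letter after a final digit. In all, 37 such groups held 118 genes, of which 82 were tested, with 1 higher and 1 lower in F9ΔNLS. This naming rule leaves out copies such as U14:30Ea and U14:30Eb. It takes in the Or-CD9 and Or-CD11 genes, whose names give no target. Reads from near-identical copies can be divided among them by the counting, so the values of single copies are uncertain. The differences between copies were not tested.

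Nearly all annotated snoRNA genes had a host: 243 of 256 lie inside another gene on the same strand, in 94 hosts, of which 90 were tested. The host with the most snoRNA genes was Arpc2, a subunit gene of the actin-nucleating Arp2/3 complex, with 17 copies of the Psi18S-525 and Psi18S-640 guides. Of these 12 were tested, with F9ΔNLS log2 fold changes from 0.01 to 0.23 and no call, and the host had 0.05 (adjusted p = 0.35) in the authors' deposited table. Only Psi18S-640b, with a mean of 154 normalized counts, exceeded a mean of 15.4 among the copies in Arpc2. Next came Uhg1, a noncoding host with 16 snoRNA genes, of which 6 were tested. Uhg1 was called higher in F9ΔNLS, with a log2 fold change of 0.64 (adjusted p = 1.9e-04) in that table, while its 6 tested snoRNA genes lay between 0.02 and 0.08 and none was called.

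The noncoding Uhg genes, whose introns carry snoRNAs and whose spliced exons code for no known protein, rose in part in F9ΔNLS. Of the 7 found in the table, 4 were called higher, against 11.6% of all tested genes, and the median log2 fold change of the 7 was 0.37. Beside Uhg1, those called higher were Uhg5 at 0.54 (adjusted p = 0.0073), Uhg2 at 0.44 (adjusted p = 0.0021) and Uhg4 at 0.37 (adjusted p = 0.0072) in the authors' deposited table. Uhg3 had −0.08 (adjusted p = 0.62). In M6stop 0 of the 7 were called by DESeq2, and at an unadjusted p under 0.05 at least 0 were higher and 1 lower. The 24 tested snoRNA genes in Uhg introns had 0 calls in F9ΔNLS (at least 1 higher and 0 lower at an unadjusted p under 0.05) and a median of 0.044, with 22 above 0.

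Over all hosts, 26 of 90 were called higher and 6 lower in F9ΔNLS, with a median log2 fold change of 0.08. Over all tested genes 11.6% were called higher and 11.9% lower. The tested hosts had a median mean of 7002 normalized counts. Of the 3882 tested genes at means of 1000 or more, 723 were called higher and 515 lower. The 61 tested snoRNA genes in hosts called higher had 1 higher and 0 lower calls and a median of 0.046. The 101 in hosts that were not called had 1 higher and 2 lower calls and a median of 0.038. These groups overlap: Psi18S-531 and nop5-x16-a, each in a host called higher and a host not called, count in both. The 3 in hosts called lower had 0 calls by DESeq2, and at least 0 at the unadjusted threshold. Of 27 ribosomal protein hosts 0 were called higher by DESeq2 and 1 lower, and at an unadjusted p under 0.05 at least 0 were higher and 2 lower. The 51 tested snoRNA genes classed by a ribosomal protein host had 0 higher and 1 lower call, and at least 1 higher and 2 lower at the unadjusted threshold. That class is not quite the same set: it includes the host sta and leaves out RpL23A, whose snoRNA genes also lie in Uhg7. Whether a snoRNA gene's value depends on its host's was not tested. Fragments of a host's unspliced intron and of the mature snoRNA cannot be told apart in these counts.

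**Figure D5:**
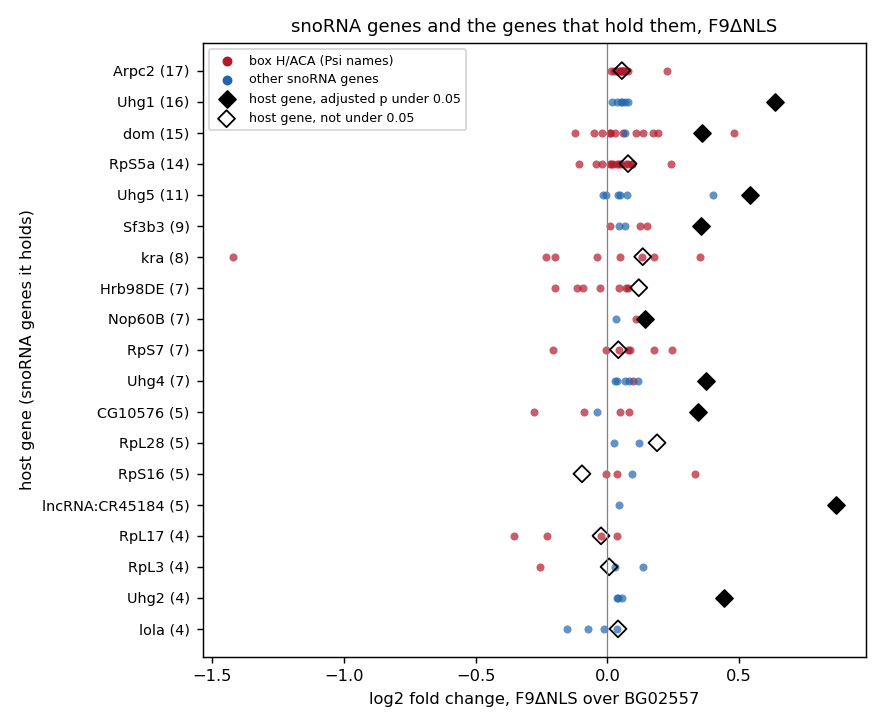
Log2 fold change in F9ΔNLS over BG02557 (x axis) of the tested snoRNA genes (circles, coloured by class) and of their host gene (diamond, filled for a DESeq2 adjusted p under 0.05), for the 19 hosts with 4 or more snoRNA genes (rows, number in brackets). In Uhg1 the host lies at 0.64 and its snoRNA genes between 0.02 and 0.08, and in kra Psi28S-3186 lies at −1.42, far to the left of the host.

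Of the 13 annotated snoRNA genes with no same-strand host, 10 were tested, and 2 of these rose in F9ΔNLS, Psi18S-176 and Psi28S-3342. Among all tested genes 11.6% were called higher, and with 10 genes the 2 shares were not compared by a test. The remaining 8 were not called: their log2 fold changes in the authors' deposited table included 0.18 for U3:54Aa, −0.10 for U3:9B, 0.04 for Or-aca4 and −0.02 for Psi28S-2622. Or-aca4 and Psi28S-2622 overlap genes on the opposite strand, and the strand setting of the counting is not stated. Such overlaps were found for 11 snoRNA genes, of which 5 were tested, and for none of the 6 called genes. Overlap with an exon on the same strand was found for 20 genes, of which 14 were listed at 0 and 2 were tested. Among these were 4 Me28S-G1083 copies in exons of Nop60B, all listed at 0.

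All 8 genes of the core proteins that bind the guide RNAs were called higher in F9ΔNLS, against 11.6% of all tested genes. Their means were 1181 normalized counts or more, and at means of 1000 or more 723 of 3882 tested genes were called higher. All 4 core proteins of box C/D particles rose: Fib, the methyltransferase, with a log2 fold change of 0.66 (adjusted p = 3.2e-10), hoip, the fly relative of the protein that binds the C/D motif, with 0.39 (adjusted p = 4.3e-05), Nop56 with 0.36 (adjusted p = 6.2e-04) and nop5 with 0.34 (adjusted p = 7.2e-05) in the authors' deposited table. All 4 core proteins of box H/ACA particles rose too: CG4038, the relative of GAR1, with 0.67 (adjusted p = 1.6e-06), NHP2 with 0.41 (adjusted p = 9.8e-04), CG7637, the relative of NOP10, with 0.40 (adjusted p = 0.0020), and Nop60B with 0.14 (adjusted p = 0.025) in that table. In M6stop 0 of the 8 were called by DESeq2 and at least 0 at the bounded unadjusted p under 0.05, with values from −0.07 to 0.10. Fib, nop5 and Nop60B are also hosts of snoRNA genes, of which 1 in Fib, 1 in nop5 and 2 of 7 in Nop60B were tested. None of these was called, against 3.41% of all tested snoRNA genes in F9ΔNLS, and so few genes say little. The muscle sheath markers, also all called higher in F9ΔNLS, had a median log2 fold change of 0.81, and their part in these values was not tested. Whether F9ΔNLS and M6stop differ from each other was not tested either, since the table holds no comparison of the mutant lines.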

How the data were processed

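Total RNA of fly ovaries was depleted of ribosomal RNA and sequenced as paired-end libraries (NEBNext Ultra kit, NextSeq sequencer), per the labels' protocols. Per the submitters' processing notes, the build was BDGP6 and the tools included DESeq2 1.25.10, DESeq, R 3.6.3 and Salmon 1.3.0, whose roles are not stated. No source used here gives the annotation release, the strand setting or the filters. The mean normalized count is a signal value that the authors computed over their libraries and deposited. For each mutant line over BG02557, log2 fold changes and adjusted p-values were deposited by the authors, per the file headers. Neither the log base, taken as 2, nor any shrinkage of fold changes is stated. Genes named as ribosomal RNA (47) held 64.3% of the summed means.

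The table's 9 columns of single libraries carry codes that match no sample label and were used in no step. The edgeR or limma fits planned for them were therefore not run, and depth, spread and counting intervals are unknown. Calls use an adjusted p under 0.05. Bounds on unadjusted p-values assume Benjamini-Hochberg adjustment over 10662 genes. Positions, lengths and hosts come from Ensembl release 115 (BDGP6.54), matched by gene ID. It may differ from the authors' annotation: 30 snoRNA genes, 2 of them tested, are missing there. A host is a gene that contains the snoRNA gene on the same strand. Scripts (Python 3.11.15, pandas 2.3.3, numpy 2.4.6, matplotlib 3.10.9) were tested on simulated data.

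Genes named are all those called, the 3 highest and 3 lowest fold changes per class and comparison, the 5 highest means per class, the 2 hosts with most snoRNA genes and the leading genes of the protein and host lists. The genes in kra and RpL17, the copies of named genes, those near the threshold, other hosts and other genes with no host were chosen after their values were seen. The snoRNA genes and all lists were chosen with earlier results of these data known. Alternatives tried were the threshold, a minimum mean, exon overlap, the biotype source and, added after seeing the data, lettered copies.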

Additional observations from a re-analysis of the deposited data

How the results depend on the processing

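No paired analysis was possible because the library columns could not be tied to the labelled samples. For the same reason the fits with a replicate block, those leaving out each replicate, and those with another pseudocount, no low-value filter or DESeq2 size factors were not run. In M6stop the count called higher stayed at 0 under every alternative run, and the count called lower fell to 0, against 1, when a mean of at least 50 normalized counts was required, which removes Psi28S-3186. In F9ΔNLS the count called higher, 4 at an adjusted p under 0.05, was 2 under 0.01 and 8 under 0.1. The count called lower, 2, was 1 under 0.01 and 1 with a mean of at least 50. Among the 94 tested genes with no copy by the rule of a letter after a final digit, 3 were called higher and 1 lower. Under 0.01 Psi18S-841d, Psi28S-1180 and Psi28S-3436a were no longer called. The median log2 fold change in F9ΔNLS, 0.039, was 0.028 with a mean of at least 50 (78 genes) and 0.019 over all 246 genes with a fold change. Leaving out exon overlaps or taking the biotype from the annotation changed no count of calls. Low counts limit what can be said: 110 of 286 genes had no adjusted p.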
